A study of Mus musculus with 16 samples.

Results

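H3K4me1 summits were described at 6 windows of the mm9 genome set around 8 genes of antigen presentation and costimulation: H2-Ab1, H2-Aa and H2-Eb1 together, and Ciita, Cd74, Cd86, Cd80 and Cd40 each in a window of its own. The windows are defined by genome position around these genes and cover 610 kb, and the genes were picked with earlier results of these data known. They held 71 of the 79796 summits listed for dendritic cells and 28 of the 81860 listed for 3T3 fibroblasts. A summit is the 1 bp position at which an H3K4me1 peak is highest, and the number deposited with it, here the score, was taken as the height of the signal there.

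H3K4me1, the mark of histone H3 with a single methyl group on lysine 4, lies at enhancers and beside promoters. The series maps it, with other marks, in mouse bone marrow-derived dendritic cells and in the mouse fibroblast line 3T3, to list candidate enhancers. Both libraries used here came from cells without stimulus. The dendritic cells grew from bone marrow progenitors infected with a retrovirus whose hairpin targets the histone demethylase JmjD2d and selected in histidinol. They matured for 4 days in GM-CSF with SCF at 5 ng/ml and for 4 more days in GM-CSF alone. The 3T3 cells were kept in standard culture and the labels name no hairpin for them, so cell type and hairpin cannot be told apart. Strain, sex and age are not given in the labels, nor is any sorting of the dendritic cell culture. The cell type field of the 3T3 sample reads dendritic cells, against its title, its description and the header of its list, which name 3T3. Each cell type is 1 library without a replicate, so no p-value is given and every interval covers counting error only. The depth of the libraries is unknown. A weaker signal in every cell and a signal in fewer of the cells cannot be told apart in such bulk samples.

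Dendritic cells take up antigen and show its peptides to CD4+ T cells on MHC class II, a pair of chains that in the mouse are encoded by genes such as H2-Aa (alpha chain), H2-Ab1 and H2-Eb1 (beta chains). Cd74 encodes the invariant chain, which guides class II molecules to the compartment where peptides are loaded. Ciita encodes the coactivator that switches class II genes on, acting through proteins bound to the X and Y boxes of their promoters. Cd80 and Cd86 encode the ligands of CD28 and CTLA-4 that costimulate or restrain the T cell, and Cd40 encodes the receptor through which T cells license the dendritic cell. Fibroblasts do not act as professional antigen presenting cells.

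All 8 genes were found by symbol in a RefSeq gene table of GRCm38, on the chromosomes that the windows name. Since that build is not mm9, the place of each gene within its window was not checked, no position in it can be set against a summit, and no summit is assigned here to a promoter, an intron or an exon. The table gives the order of the neighbouring coding genes: H2-Ob, H2-Ab1, H2-Aa, H2-Eb1 and H2-Eb2 follow each other, Ciita lies between Tvp23a and Dexi, Cd74 between Rps14 and Tcof1, Cd86 between Casr and Ildr1, Cd80 between Adprh and Timmdc1, and Cd40 between Ncoa5 and Cdh22. A summit in a window may therefore belong to a neighbour.

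RefSeq promoter sequences, of 300 bases each (250 before the gene's start and 50 from it), were at hand for 3 of the 8 genes. Those of the class II genes H2-Aa (GRCm38.p6, chr17:34287774-34288073, minus strand) and H2-Eb1 (GRCm38.p6, chr17:34305617-34305916, plus strand) are printed 5′ to 3′ to show where the letters of the X and Y boxes occur. Capitals mark the X2-box core TGACG and the Y-box core CCAAT, on either strand.

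H2-Aa: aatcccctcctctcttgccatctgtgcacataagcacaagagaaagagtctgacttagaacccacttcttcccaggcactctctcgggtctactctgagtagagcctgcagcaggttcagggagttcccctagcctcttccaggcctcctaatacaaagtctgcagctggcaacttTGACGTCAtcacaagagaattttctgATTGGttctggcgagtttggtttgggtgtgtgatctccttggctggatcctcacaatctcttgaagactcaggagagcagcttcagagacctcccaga

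H2-Eb1: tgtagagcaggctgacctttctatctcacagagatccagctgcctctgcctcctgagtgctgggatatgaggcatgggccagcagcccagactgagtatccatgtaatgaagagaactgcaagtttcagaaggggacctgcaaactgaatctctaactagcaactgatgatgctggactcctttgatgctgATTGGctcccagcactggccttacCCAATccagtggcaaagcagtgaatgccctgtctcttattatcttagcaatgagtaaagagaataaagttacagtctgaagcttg

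In H2-Aa the X2-box core stands on both strands, overlapping itself at bases 177 to 181 and 180 to 184, and the Y-box core stands reversed at bases 203 to 207. H2-Eb1 has the Y-box core reversed at bases 192 to 196 and forward at bases 216 to 220, and these letters of the X2-box core are not in its window. Both genes share the longer Y-box string CTGATTGG, searched after the sequences were seen. It was found in 4.10% of the 32851 RefSeq promoters of this length, the X2-box core in 20.8%, the Y-box core in 37.4% and both cores in 7.73%. The Cd80 promoter held neither core. These matches describe letters only, and whether any H3K4me1 summit flanks these promoters was not tested.

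Each of the 6 windows held more summits in the dendritic cell list than in the 3T3 list, but by very different margins. At the class II window 14 dendritic cell summits stood against 2, at Cd86 19 against 2, and at Cd40 9 against 2. At Cd80 the numbers were 12 and 8, at Cd74 7 and 5, and at Ciita 10 and 9. With every window widened by 20 kb on each side, Ciita had 15 summits in each list and Cd74 9 against 8. The exact Poisson 95% intervals of the counts did not overlap at the class II window (7.65 to 23.5 against 0.242 to 7.22) and at Cd86 (11.4 to 29.7 against 0.242 to 7.22), and they overlapped at the other 4. The share of all windows of the genome whose intervals do not overlap was not computed. The genes were also picked with these lists in view, so the overlaps are a description and no test. Over all windows, dendritic cell summits made up 71.7% of the 99 summits (exact Clopper-Pearson 95% interval 61.8 to 80.3), against 49.4% of the 161656 summits of the whole lists. These intervals treat summits as independent, although neighbouring summits can belong to the same marked stretch.

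**Figure D1:**
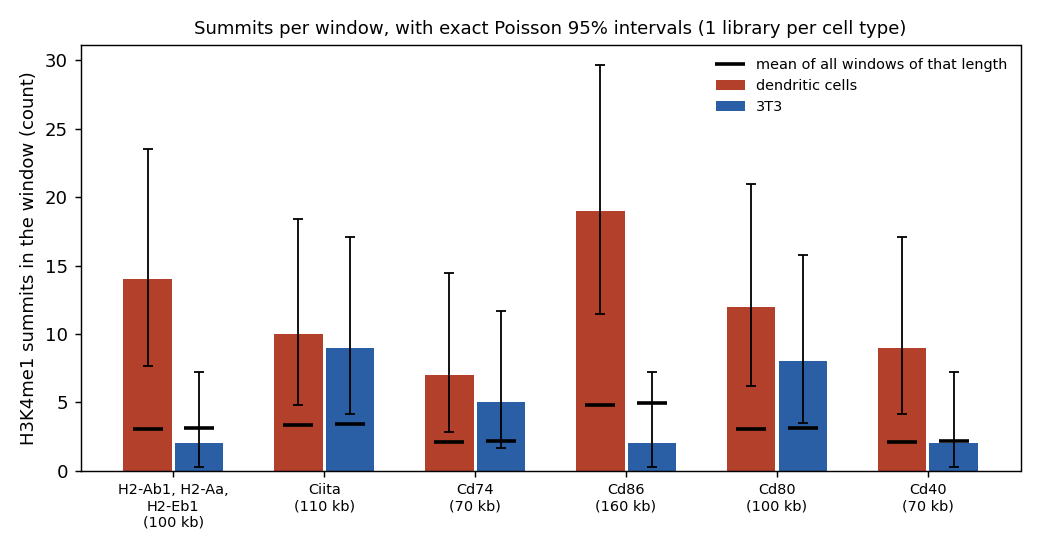
Number of H3K4me1 summits in each window (bars, with exact Poisson 95% intervals) in dendritic cells and 3T3, with the mean number over all windows of the same length in the genome (black dashes). Windows without any summit are included in the means. The dendritic cell bar is above its dash at all 6 windows. The 3T3 bar is below its dash at the class II genes (2 against 3.10), Cd86 (2 against 4.96) and Cd40 (2 against 2.17). A 3T3 count of 2 or fewer was found in 59.0, 50.5 and 66.4% of windows of those lengths. The 3T3 bar is above its dash at Ciita (9 against 3.41), Cd80 (8 against 3.10) and Cd74 (5 against 2.17). At least as many 3T3 summits were found in 15.2, 16.1 and 20.6% of windows of the lengths of these 3.

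The genes were picked with results of these lists in view, so their place among other windows is a description. Set beside all windows of equal length tiled over the autosomes and the X chromosome, 3 of the 6 loci were within the 5% with the largest dendritic cell excess. An excess at least as large as that of the class II genes (12 summits) was found in 0.330% of 26380 windows of 100 kb, and one as large as that of Cd86 (17 summits) in 0.303% of 16492 windows of 160 kb. For Cd40, whose excess was 7, the share was 1.71% of 37677 windows of 70 kb. The excess of 4 at Cd80 was matched or passed by 11.8% of windows, that of 2 at Cd74 by 18.0% and that of 1 at Ciita by 29.5%. Windows without any summit were counted in these shares. Among windows with a summit in either list, the shares were 0.515% for the class II genes, 0.439% for Cd86 and 2.84% for Cd40. For Cd80, Cd74 and Ciita they were 18.4, 29.9 and 45.3%. Ciita, which encodes the regulator of the class II genes, had the smallest excess of the 6 with all summits, but not with the highest-scoring ones. When each list was reduced to its 39898 highest-scoring summits, the share was 0.330% for the class II genes, 0.958% for Cd86, 3.89% for Cd80, 10.6% for Ciita (9 against 6 summits), 12.2% for Cd40 (4 against 2) and 20.9% for Cd74 (4 against 3). By the number of dendritic cell summits alone, as many were found in 2.39% of windows for the class II genes, 4.23% for Cd86, 5.78% for Cd40, 5.88% for Cd80, 12.6% for Cd74 and 13.7% for Ciita.

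Ciita, Cd80 and Cd86 all lie on chromosome 16, where dendritic cell summits made up 51.3% of both lists, and their own shares were 52.6% (28.9 to 75.6), 60% (36.1 to 80.9) and 90.5% (69.6 to 98.8). The class II window had 87.5% (61.7 to 98.4) on a chromosome with 48.6%. Cd40 had 81.8% (48.2 to 97.7) on a chromosome with 50.5%, and Cd74 58.3% (27.7 to 84.8) on a chromosome with 47.7%.

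Sharing of sites was read from distance: a summit had a counterpart if the other list had a summit no more than 1000 bp away. In the 6 windows 56 of 71 dendritic cell summits had none (78.9%, 67.6 to 87.7), against 69.4% in the whole list, which lies inside that interval. Of the 28 3T3 summits 13 had none (46.4%, 27.5 to 66.1), against 70.2% in the whole list. The windows held 71 dendritic cell summits to be met by a 3T3 summit and 28 in the other direction, and the part of these numbers in the shares was not tested. The dendritic cell share stood above that of the whole list at 1000 bp but not at 250 bp, where the values were 81.7 and 82.2%. At 5000 bp, 56.3% (44.0 to 68.1) of the dendritic cell summits at the loci still had no counterpart, against 40.7% of the whole list. For 3T3 that share was 10.7% (2.27 to 28.2) against 43.9%.

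**Figure D2:**
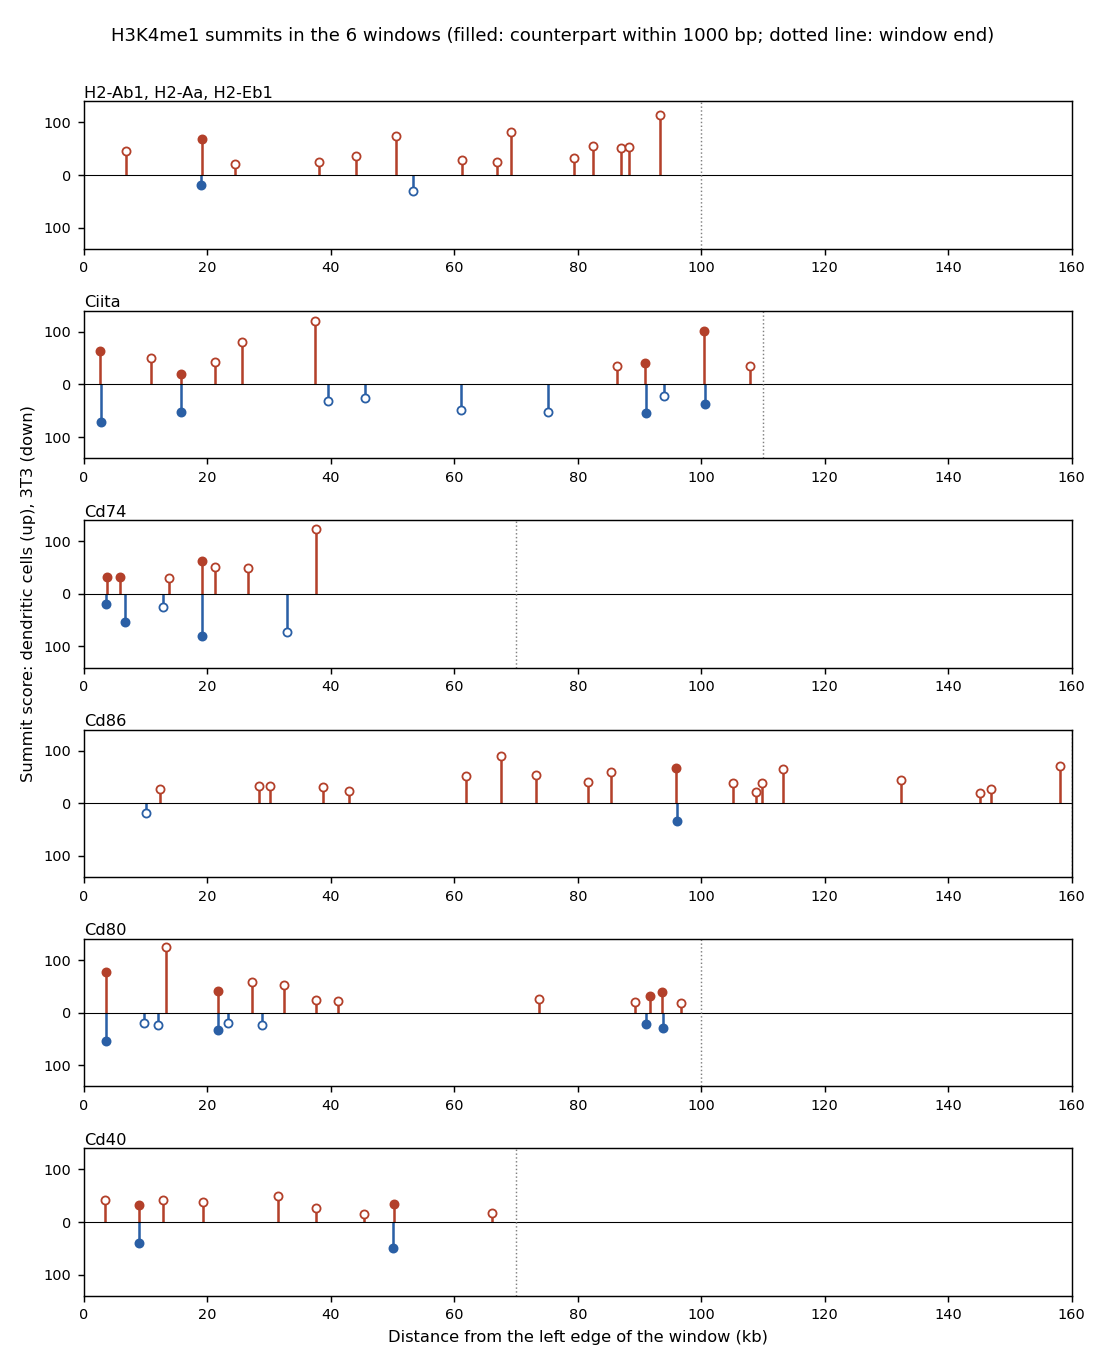
H3K4me1 summits along each window, as distance from its left edge (kb), with the score upward for dendritic cells and downward for 3T3; filled points have a counterpart within 1000 bp and dotted lines mark window ends. Dendritic cell summits run through the class II, Cd86 and Cd40 windows with 2 3T3 summits each, whereas at Ciita and Cd80 the lists alternate or share stretches without summits.

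At the MHC class II genes, in the window from 34380000 to 34480000 on chromosome 17, dendritic cell summits were spread over almost the full length. Their scores ran from 21 to 114 with a median of 48.5, and 13 of the 14 had no 3T3 counterpart (92.9%, 66.1 to 99.8). The whole list had 69.4% without one, inside that interval, and with 2 3T3 summits in the window few counterparts were possible. From left to right the dendritic cell summits lay at 34386719 (score 46), 34399051 (68), 34404536 (21), 34418124 (24), 34424020 (36) and 34430582 (75). To the right of the last 3T3 summit, 8 more followed, at 34441251 (29), 34446922 (25), 34449220 (81), 34459372 (33), 34462492 (55), 34466941 (51), 34468305 (54) and 34473239 (114). The highest of them, at 34473239, was 39870 bp from the nearest 3T3 summit and ranked in the 97.7th percentile of the dendritic cell list. The 3T3 summits were low: 34398871 had a score of 19, at percentile 6.00 of the 3T3 list, and 34433369 one of 30, at percentile 42.7. The former was the partner, 180 bp away, of the dendritic cell summit at 34399051. Once centred on the median of all pairs of the genome, the score of this pair was 3.29-fold higher in dendritic cells.

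Ciita, from 10450000 to 10560000 on chromosome 16, showed marked sites in both cell types that only partly coincided. The dendritic cell scores ran from 20 to 121 (median 46) and the 3T3 scores from 22 to 71 (median 49). Dendritic cell summits lay at 10452596 (64), 10460843 (50), 10465660 (20), 10471153 (42), 10475618 (80) and 10487438 (121). Then came 48.976 kb without any, and the last 4 were at 10536414 (36), 10540921 (41), 10550435 (101) and 10557859 (36). That empty stretch held 4 3T3 summits, at 10489552 (32), 10495521 (26), 10511117 (49) and 10525216 (53), and none of these had a dendritic cell summit within 1000 bp. Conversely, the longest stretch without a 3T3 summit, 23.837 kb from 10465715 (53) to 10489552, held 3 dendritic cell summits, with scores of 42, 80 and 121. The highest of these, at 10487438, was in the 98.3rd percentile of its list and 2114 bp from the nearest 3T3 summit. The other 3T3 summits were at 10452701 (71), 10541046 (55), 10543920 (22) and 10550619 (38). Of the 10 dendritic cell summits 4 were shared, the largest number of shared sites at any of the windows together with Cd80. The other 6 (60%, 26.2 to 87.8) had no counterpart, against 69.4% in the whole list.

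Cd74, from 60930000 to 61000000 on chromosome 18, had its summits in the left part of the window in both lists. Dendritic cell summits lay at 60933686 (32), 60935891 (33), 60943795 (30), 60949182 (62), 60951271 (52), 60956581 (50) and 60967521 (123). The 3T3 summits lay at 60933589 (20), 60936704 (53), 60942774 (25), 60949146 (81) and 60962932 (73). The summits at 60949182 and 60949146, 36 bp apart, were the second highest of the window in dendritic cells and the highest in 3T3, where the score was in the 92.0th percentile. The highest dendritic cell summit, at 60967521, was in the 98.4th percentile, and the nearest 3T3 summit was 4589 bp away. A counterpart was lacking for 4 of 7 summits in dendritic cells (57.1%, 18.4 to 90.1) and 2 of 5 in 3T3 (40%, 5.27 to 85.3). The whole lists had 69.4 and 70.2% without one, inside these intervals. Of the unshared summits of the window, the dendritic cell summit at 60943795 and the 3T3 summit at 60942774 were 1021 bp apart, just over the limit.

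The Cd86 window, from 36560000 to 36720000 on chromosome 16, was the longest and had the largest excess of dendritic cell summits. Its 19 dendritic cell summits had scores from 20 to 89, with a median of 38, and 18 had no counterpart (94.7%, 74.0 to 99.9). The 69.4% of the whole list was below that interval, but with 2 3T3 summits in the window few counterparts were possible. The 5 highest dendritic cell summits were at 36627600 (89), 36718113 (71), 36655827 (67), 36673268 (65) and 36645405 (59). In 3T3 a summit at 36570016 scored 18, at percentile 3.52, and one at 36656031 scored 34, at percentile 52.2. Only the latter had a dendritic cell summit within 1000 bp, that at 36655827, 204 bp away. Between both 3T3 summits lay 86.015 kb with 11 dendritic cell summits, and to the right of the second lay 8 more, with scores from 20 to 71. The highest dendritic cell summit, at 36627600, was 28431 bp from any 3T3 summit and in the 93.2nd percentile of its list.

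At Cd80, the gene of the other B7 ligand, 4 of 12 dendritic cell summits had a 3T3 counterpart, against 1 of 19 at Cd86. The shares without one, 66.7% (34.9 to 90.1) and 94.7% (74.0 to 99.9), had overlapping intervals, and that of Cd80 was near the 69.4% of the whole list. The Cd80 and Cd86 windows held 8 and 2 3T3 summits, of which 4 and 1 had a dendritic cell counterpart. In the window from 38430000 to 38530000 on chromosome 16, dendritic cell summits lay at 38433621 (78), 38443338 (125), 38451745 (41), 38457183 (59), 38462470 (53), 38467520 (25) and 38471122 (22). Beyond 32.666 kb without a summit followed 38503788 (26), 38519293 (21), 38521770 (32), 38523700 (40) and 38526796 (19). The 3T3 summits were at 38433515 (54), 38439779 (19), 38441935 (23), 38451750 (33), 38453273 (20), 38458761 (24), 38521055 (22) and 38523850 (30). Both lists thus had summits at the left and at the right end of the window, and none of the 3T3 summits was more than 5000 bp from a dendritic cell summit. The 62.294 kb between the 3T3 summits at 38458761 and 38521055 held 5 dendritic cell summits and no 3T3 summit. Scores of the 3T3 summits were low for that list (median 23.5, median percentile 21.7), while the dendritic cell median of 36 was at the 49.5th percentile. The dendritic cell summit at 38443338 was the highest of all 6 windows, in the 98.6th percentile, and 1403 bp from a 3T3 summit that scored 23.

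Cd40, from 164850000 to 164920000 on chromosome 2, had 9 dendritic cell summits of middling height. They were at 164853389 (42), 164858885 (33), 164862739 (41), 164869335 (38), 164881391 (50), 164887556 (27), 164895304 (16), 164900172 (35) and 164916143 (18). None was within the top decile of its list, and the highest was at the 70.6th percentile. Both 3T3 summits, at 164858862 (39) and 164900047 (49), were shared, 23 and 125 bp from their partners. The 41.185 kb between them held 6 dendritic cell summits and no 3T3 summit.

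Grouped by role, the class II presentation genes (the class II window, Ciita and Cd74, 280 kb in all) had 31 dendritic cell and 16 3T3 summits. The costimulation genes (Cd86, Cd80 and Cd40, 330 kb) had 40 and 12. Of the dendritic cell summits 74.2% (55.4 to 88.1) had no counterpart in the former group and 82.5% (67.2 to 92.7) in the latter, and the intervals overlapped. The 69.4% of the whole dendritic cell list was inside both intervals. The median dendritic cell score was 50 at the presentation genes and 38 at the costimulation genes. Within each group the windows differed: the class II window and Ciita had 2 and 9 3T3 summits, and Cd86 and Cd80 had 2 and 8.

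Since no scaling between the lists is recorded, scores were ranked within their own list. Dendritic cell summits in the windows had a median score of 41 (median percentile 58.7) against 36 in the whole list, and 3T3 summits 32.5 (48.8) against 33. The dendritic cell medians by locus were at percentile 70.6 for Cd74, 68.7 for the class II genes, 65.4 for Ciita, 53.8 for Cd86, 49.5 for Cd80 and 48.2 for Cd40. Of the 71 dendritic cell summits 8 were in the top decile (11.3%, 4.99 to 21.0), close to the 10.2% of the whole list, tied scores included. In 3T3 the top decile held 1 of 28.

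**Figure D3:**
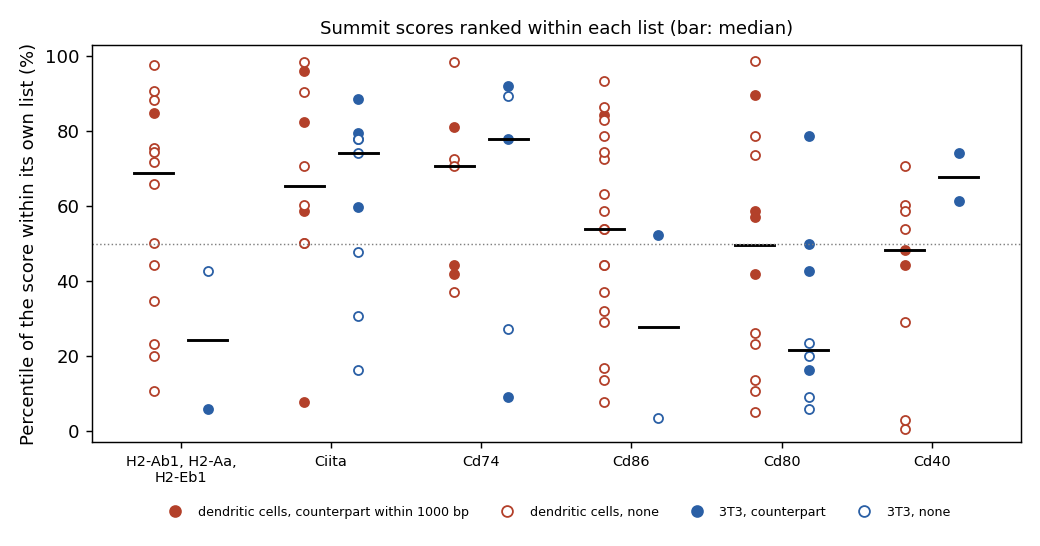
Percentile of each summit's score within its own list (vertical axis, %), by locus, for dendritic cells and 3T3; filled points have a counterpart within 1000 bp and black bars are medians. The highest dendritic cell point of every window is open, and at Cd40 no point reaches the top decile.

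The highest dendritic cell summit of each window was without a 3T3 counterpart at all 6 loci, at distances between 1403 bp (Cd80) and 39870 bp (class II). The highest 3T3 summit of each window was shared at 5 of 6, the exception being the class II window, while 70.2% of all 3T3 summits and 66.3% of those in the top decile of the 3T3 list had no counterpart. The class II, Cd86 and Cd40 windows held 14, 19 and 9 dendritic cell summits but only 2 3T3 summits each. Few dendritic cell summits could therefore be shared there, and the part of these unequal numbers in the contrast was not tested. Among the 8 dendritic cell summits of the top decile 7 had no counterpart (87.5%, 47.3 to 99.7), against 63.5% of the 8133 top-decile summits of the whole list, a value inside that interval. The shared one was that of Ciita at 10550435. Shared and unshared dendritic cell summits of the windows had median scores of 41 and 39.5, and those of the whole list 40 and 34. In 3T3 the medians were 39 for shared and 25 for unshared summits, against 36 and 32 in the whole list.

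At 15 sites the windows held mutually nearest summits of both lists, with distances from 5 bp (Cd80, 38451745 and 38451750) to 813 bp (Cd74). Of these, 12 (80.0%) were within 200 bp, against 52.4% of all 24378 pairs, and the median distance was 125 against 182 bp. No interval was computed for these values, and whether 15 pairs differ from all pairs beyond counting error was not tested. The score ratio of 3T3 to dendritic cells, relative to the median of all pairs, was above 0 on the log2 scale at 7 pairs and below 0 at 8, with a median of -0.19 (exact binomial 95% interval for the median, -0.56 to 0.55). At least a 2-fold higher relative score was found in dendritic cells at 2 pairs, against 11.6% of all pairs, and in 3T3 at 1 pair, against 11.9%. The former were the class II pair at 34399051 (-1.72) and the Ciita pair at 10550435 (-1.29), where the unscaled scores were 101 and 38. The pair higher in 3T3 was also at Ciita, at 10465660, with a relative log2 ratio of 1.53 and scores of 20 in dendritic cells and 53 in 3T3.

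**Figure D4:**
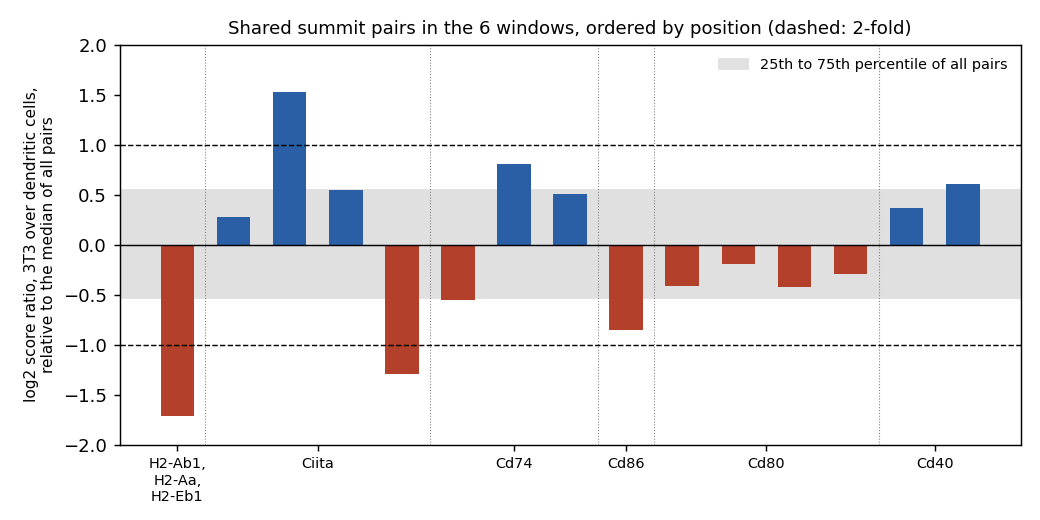
Log2 ratio of the 3T3 to the dendritic cell score at the 15 shared pairs, centred on the genome-wide median pair (blue, higher in 3T3; red, higher in dendritic cells); the grey band is the 25th to 75th percentile of all pairs and dashed lines mark 2-fold. Pairs past 2-fold are at the class II genes (-1.72) and, in opposite directions, at Ciita (1.53 and -1.29).

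All 4 pairs at Cd80 lay slightly on the dendritic cell side, with relative log2 ratios from -0.42 to -0.19, and the Cd86 pair was at -0.86. Both Cd40 pairs lay on the 3T3 side (0.36 and 0.61). At Ciita the remaining pairs were at 0.27 (10452596) and 0.55 (10540921). The Cd74 pairs were at -0.56 (60933686), 0.81 (60935891) and 0.51 (60949182). With 1 library per cell type, no ratio can be set against the spread between libraries.

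Summits of a window were mostly several kilobases apart. Neighbouring dendritic cell summits were a median of 5671 bp apart, against 8173 bp in the whole list, and neighbouring 3T3 summits 8257 bp, against 9167 bp; spacings that run past a window edge are left out at the loci but not in the whole lists. Within 3000 bp of the next summit lay 9 of 65 dendritic cell neighbours (13.8%), against 11.9%, and 4 of 22 3T3 neighbours (18.2%), against 10.7%. The longest chain of summits no more than 3000 bp apart had 3 members, at Cd80 in dendritic cells from 38519293 to 38523700. Chains elsewhere were of 2, as from 34446922 to 34449220 at the class II genes, from 60933686 to 60935891 at Cd74 and from 36588386 to 36590064 at Cd86. At Ciita and Cd40 no dendritic cell neighbours were that close.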

How the data were processed

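ChIP-seq of H3K4me1 was analysed in 2 of the 16 samples of the series, 1 library each of unstimulated dendritic cells and 3T3 cells, grouped by sample title. The other samples were left aside. Fixed chromatin was, per the labels' protocols, sheared to about 300 bp, and libraries went through 18 PCR cycles before 36 bp single-read sequencing. Reads were aligned with Bowtie to mm9 and peaks called with MACS 1.4, per the submitters' processing notes, separately per sample. Per the file headers, calling used a threshold of 1e-04, a shift of 150 bp, no fragment model and no local background. Use of an input library was not given in the sources used here. For each summit the authors deposited a 1 bp position with a signal value that the header does not name, a whole number of at least 13. No scaling between lists is recorded, and read depth is unknown.

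Summits were counted in the windows (1-based mm9, edges included), matched to the nearest summit of the other list within 1000 bp, and ranked within their list, ties at mid-rank. A chain joins summits at most 3000 bp apart. Windows of equal length were tiled over 20 chromosomes up to the last summit. Poisson, Clopper-Pearson and median intervals are exact, at 95%. Named were all members, the highest summit of each window, all 3T3 summits and pairs, and all dendritic cell summits, or the 5 highest at Cd86. The members, windows and lists were chosen with earlier results of these data known. Promoters came from RefSeq (GRCm38.p6). Distance matching was tested on simulated data. Alternatives were other distances, a score of at least 20, top-scoring or merged summits, and moved, widened or omitted windows. Python 3.11.15, numpy 2.4.6, pandas 2.3.3, scipy 1.17.1 and matplotlib 3.10.9 were used.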

Additional observations from a re-analysis of the deposited data

How the results depend on the processing

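With the 39898 top-scoring summits of each list, the windows held 43 dendritic cell and 13 3T3 summits in place of 71 and 28, and the dendritic cell excess of Cd40 was then matched by 12.2% of windows and that of Cd80 by 3.89%. Widened by 20 kb, the Ciita window had 15 summits in each list. At 5000 bp the shares without a counterpart were 56.3 and 10.7%. Chains took in 35.4% of dendritic cell neighbours at 5000 bp, and 4.55% of 3T3 neighbours at 2000 bp. By dendritic cell count, 1 locus in place of 2 stayed within the top 5% both among windows with at least 1 summit and after merging; by excess, 3 did in every setting tried, but with the top-scoring summits Cd80 stood in place of Cd40. In settings added after seeing the data, pairs at least 2-fold higher in dendritic cells numbered 1 without the class II window and 1 without Ciita, and those higher in 3T3 numbered 0 without Ciita. The median pair ratio changed sign without the class II window (0.04), Cd86 (0.04) or Cd80 (0.36). With any window left out, the dendritic cell share without a counterpart was 73.1 to 82.0% and the 3T3 share 42.1 to 50%. No paired analysis was possible because each cell type has 1 library. Where no summit is listed, the mark may still be present below the calling threshold.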

Other observations

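Summits were also counted outside the windows. On the left of the 3T3 summit at 36570016 near Cd86, the next 3T3 summit was at 36069981, a stretch of 500.035 kb that 0.728% of neighbouring 3T3 summits equal or exceed, and 7 dendritic cell summits lay in it. This was the longest 3T3 spacing touching the Cd86 window, and most of it lay outside that window. The 0.728% counts each spacing once, whatever its length. How much of the genome lies in spacings that long was not computed. For windows of the length of the Cd86 window, 160 kb, 37.8% held no 3T3 summit. Within 100 kb on the left and on the right of the Cd86 window there were 3 and 8 dendritic cell summits and 0 and 0 3T3 summits. From 34433369, inside the class II window, to 34564790, beyond its right edge, 3T3 had no summit. This stretch of 131.421 kb held 15 dendritic cell summits, 8 of them inside the window. Such a spacing or a longer one was found at 2.80% of 3T3 neighbours, again with each spacing counted once. The spacing of 131.421 kb was the longest touching the class II window, and 43.3% of all windows of 100 kb held no 3T3 summit. Around Cd40, dendritic cells had 7 and 2 summits and 3T3 had 8 and 2 in the adjoining 100 kb, so the lists were alike in number outside the window, where the counts were 9 and 2 inside. At Ciita the adjoining counts were 4 and 10 in dendritic cells and 9 and 10 in 3T3, and at Cd74 they were 6 and 8 against 5 and 12. Beside Cd80 they were 16 and 6 against 9 and 4, a mean of 11 dendritic cell summits per 100 kb where the window had 12. The class II window adjoined 11 and 10 dendritic cell and 8 and 2 3T3 summits in the 100 kb on each side, where the window itself had 14 and 2.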
